A study of Mus musculus with 11 samples.

Results

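The 9 genes described here encode the core of B cell receptor signalling and are Cd79a, Cd79b, Lyn, Blk, Syk, Btk, Blnk, Plcg2 and Ptpn6. They were taken by name from a list of 22,367 protein-coding genes of the mouse genome, and the locus of each was its gene body with 10 kb on each side. The question was whether these lymphoid genes are occupied by PU.1 in erythroid cells. PU.1 was measured by ChIP-Seq in 2 erythroid cell types, MEL cells and ES-EP. MEL cells are a line of leukemic mouse erythroblasts, here labelled clone 4 and carrying a stably introduced fusion of GATA-1 to the estrogen receptor (ER) domain. ES-EP are non-leukemic erythroid progenitors grown from mouse embryonic stem cells and kept dividing with erythropoietin, IGF-1, dexamethasone and stem cell factor. Neither cell type is an animal tissue, and the MEL cells are 1 clone of a line. Each cell type had 2 chromatin preparations, A and B, with 2 sequenced libraries of each made with the anti-PU.1 antibody T-21, and input DNA of the same cells (1 library for MEL cells, 2 for ES-EP). The letter in a label was taken as the preparation and its number as the library. The labels do not say whether a letter links a MEL preparation to an ES-EP preparation, and the letters were not treated as pairs.

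PU.1 (encoded by Spi1) is one of the Ets proteins, which recognise GGAA in DNA, and mice without it lack macrophages and B lymphocytes. In a B cell, antigen binding to surface immunoglobulin leads Src family kinases such as Lyn and Blk to phosphorylate the signalling tails of Cd79a and Cd79b. The kinase Syk docks there and phosphorylates the adaptor Blnk, which brings together the kinase Btk and the phospholipase Plcg2, and the phosphatase Ptpn6 (SHP-1) dampens the cascade. Lyn, Syk, Btk, Plcg2 and Ptpn6 also work in myeloid cells, whereas Cd79a, Cd79b, Blk and Blnk are mainly known from B cells. The libraries hold genomic DNA, so that no expression of these genes was measured in them.

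Reads were counted once per position and strand in windows of 500 bp. For MEL cells 5,376,474 (A) and 6,567,206 (B) such distinct reads were counted, and for ES-EP 5,818,321 (A) and 6,771,951 (B). The inputs had 4,210,724 (MEL) and 7,088,441 (ES-EP) distinct reads, so a window had a mean of 0.900 (MEL) and 1.515 (ES-EP) input reads. The input level of a window is the number of PU.1 reads expected from input, scaled by depth, and was the largest of the levels in the window, in the 5 kb or 10 kb around it and in the genome. A window was called at a Poisson p below 0.05 after Benjamini-Hochberg adjustment over 4,679,966 windows, with reads on both strands and at least 2 times the input level in each preparation. The Poisson p measures the reads of these libraries only, so the values of both preparations are given throughout, A first. It also takes the input level as exact, although that level often rests on few reads. Distances are from the centre of a window to the nearest annotated TSS of the member, negative upstream. Intervals are 95% exact intervals and cover counting error only.

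PU.1 windows were called at 6 of the 9 loci in each cell type, and the sets differ by 1 gene in each direction. Lyn, Btk, Plcg2, Ptpn6 and Cd79a had called windows in both cell types, Syk in MEL cells, and Blnk in ES-EP. Cd79b and Blk had none in either. Without ES-EP preparation A the ES-EP count was 3 loci and 5 windows in place of 6 and 18, and without MEL preparation B the MEL windows were 15 in place of 26. Over the genome the same omissions took the called windows from 13,603 to 5,413 in ES-EP and from 20,701 to 8,574 in MEL cells. Of all protein-coding loci 52.0% (MEL) and 37.6% (ES-EP) had a called window, against 66.7% of these 9 in each. The share of all loci is itself high, and length bears on the count, since the 9 loci hold a median of 129 windows against 71 for all loci.

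Counted per window, in MEL cells 26 of their 1,354 windows were called (1.92%) against 0.442% of all windows, and in ES-EP 18 (1.33%) against 0.291%. Windows near genes are called more often anywhere, with 3.41% within 2 kb of a transcription start site (TSS) in MEL cells and 1.47% in ES-EP, against 0.252% and 0.215% farther away. Within 2 kb of their own TSSs, 4 members had a called window in MEL cells (Lyn, Syk, Btk and Plcg2) and 4 in ES-EP (Lyn, Btk, Plcg2 and Ptpn6), 44.4% in each, against 34.0% and 17.1% of all genes. The ES-EP count of members was 2 without preparation A, with first libraries alone, with unshifted reads and with a binomial test.

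Adjacent called windows were joined into 26 sites, of which 9 were called in both cell types, 10 in MEL cells and 7 in ES-EP. Counted in windows, 38.5% of those called in MEL cells were called in ES-EP too, and 55.6% the other way, against 30.2% and 45.9% over the genome. Only 7 of the 26 lay within 2 kb of a TSS of the member itself. Another 7 lay at the TSS of a neighbouring gene inside the 10 kb flank, and 12 had no protein-coding TSS within 2 kb. Both sites at Cd79a lie at the start of Arhgef1, and sites counted to Btk and Ptpn6 lie at the starts of Timm8a1, Rpl36a, Phb2, Grcc10 and Atn1.

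**Figure D1:**
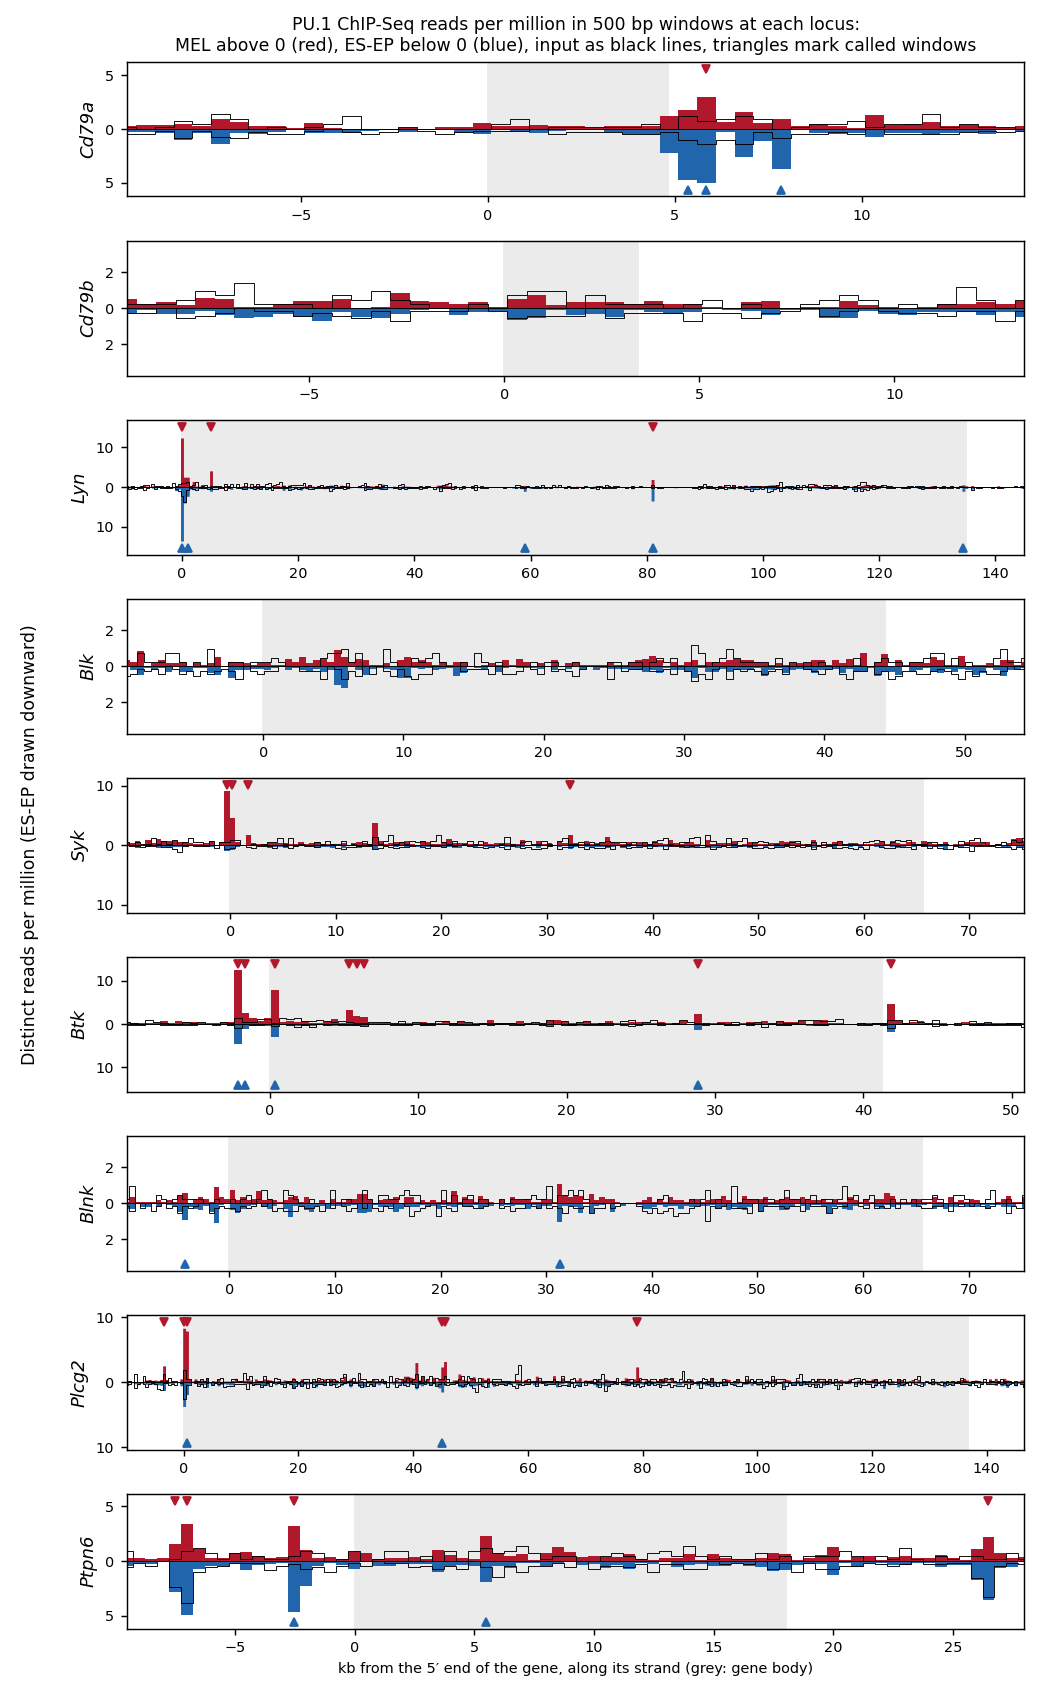
PU.1 RPM (distinct reads scaled to depth) in 500 bp windows (y axis, MEL cells upward in red, ES-EP downward in blue) against the distance in kb from the 5′ end of each gene (x axis), with both preparations summed, input as black lines, the gene body in grey, called windows marked by triangles, and a y scale of its own for each gene. The tallest columns stand at the starts of Lyn, Syk, Btk and Plcg2 and upstream of Btk, while the tracks of Cd79b, Blk and Blnk stay low; the columns at Cd79a lie past its 3′ end.

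The sequences at the highest point of the sites called in both cell types are shown first, since they are the sites that both erythroid cell types share. For Syk and Blnk, which have none, the sites of 1 cell type are given. Each stretch is from mm9 (NCBIM37), plus strand, 120 bases centred on the point where reads of all ChIP libraries were highest, and 30 bases of it where the stretch overlaps an annotated UTR. Capitals mark GAGGAA or its reverse complement TTCCTC, a word of a PU.1 site.
Cd79a site 1, chr7:25688026-25688055: ccggaaaaacgccccgacttcctgcccgcc
Lyn site 1, chr4:3605261-3605290: agcgacagccagTTCCTCtcccaccgagcc
Lyn site 5, chr4:3686151-3686270: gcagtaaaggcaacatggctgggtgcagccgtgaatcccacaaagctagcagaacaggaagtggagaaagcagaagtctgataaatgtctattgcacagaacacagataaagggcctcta
Syk site 1, chr13:52678401-52678520: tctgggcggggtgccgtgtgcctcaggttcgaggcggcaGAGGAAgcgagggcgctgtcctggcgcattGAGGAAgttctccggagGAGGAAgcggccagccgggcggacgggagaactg
Syk site 2, chr13:52680401-52680520: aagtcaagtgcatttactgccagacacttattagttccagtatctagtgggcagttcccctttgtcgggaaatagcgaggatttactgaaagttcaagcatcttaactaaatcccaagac
Syk site 3, chr13:52710491-52710610: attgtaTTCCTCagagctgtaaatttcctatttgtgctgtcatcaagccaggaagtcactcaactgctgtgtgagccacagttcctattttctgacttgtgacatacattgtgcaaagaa
Btk site 2, chrX:131089131-131089250: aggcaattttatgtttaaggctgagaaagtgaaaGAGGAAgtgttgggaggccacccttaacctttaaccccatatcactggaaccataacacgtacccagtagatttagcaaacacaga
Btk site 4, chrX:131117653-131117682: ttacagtccagaGAGGAAggacagtctgag
Btk site 5, chrX:131120051-131120170: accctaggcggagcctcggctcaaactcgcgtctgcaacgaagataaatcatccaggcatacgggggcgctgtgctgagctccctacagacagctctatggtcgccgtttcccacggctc
Blnk site 1, chr19:41037661-41037780: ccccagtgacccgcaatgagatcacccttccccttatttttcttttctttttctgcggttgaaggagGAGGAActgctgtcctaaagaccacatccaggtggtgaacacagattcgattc
Blnk site 2, chr19:41073151-41073270: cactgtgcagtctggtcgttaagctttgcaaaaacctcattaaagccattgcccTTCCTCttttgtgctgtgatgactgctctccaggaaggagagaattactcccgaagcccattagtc
Plcg2 site 2, chr8:120022461-120022580: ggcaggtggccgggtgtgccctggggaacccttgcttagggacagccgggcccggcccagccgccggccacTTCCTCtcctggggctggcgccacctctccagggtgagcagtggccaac
Plcg2 site 3, chr8:120067031-120067150: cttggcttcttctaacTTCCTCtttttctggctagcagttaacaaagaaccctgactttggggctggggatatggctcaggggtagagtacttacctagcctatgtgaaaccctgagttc
Ptpn6 site 3, chr6:124691326-124691355: gccagggaaggacatcaactccactttcga

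The word GAGGAA stood in the 120 bases of 13 of the 26 member sites (50%) and the longer word GAGGAAGT (both strands, overlapping GAGGAA) in 6 (23.1%). Among all 24,582 regions called in either cell type, the shares were 39.6% and 21.3%, and among 93,594 stretches spread evenly over the genome 11% and 0.719%. Near a TSS (within 2 kb) the shorter word stood in 42.9% of 14 member sites against 24.3% of all such regions, and farther away in 58.3% of 12 against 48.7%. The longer word stood in 21.4% against 9.25% near a TSS, but in 25% against 28.4% farther away. No test was made. Syk site 1 had 3 copies of GAGGAA within 120 bases, the nearest 12 bp from the highest point. At Btk site 4, on the Btk TSS, the word lay 3 bp from the highest point, and at Blnk site 2 also 3 bp. Cd79a site 1, Lyn site 5, Syk site 2, Btk site 5 and Ptpn6 site 3 have neither word in their 120 bases. The shorter Ets core GGAA or its reverse complement TTCC does stand in the printed stretch of each, but its share in other regions was not counted.

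The receptor chain Cd79a carries the signalling tail that Lyn phosphorylates. The gene lies at chr7:25682400-25687216 on the plus strand, and no window was called within 2 kb of its own TSS. The called windows lie downstream, at the TSS of Arhgef1. In the window 5,850 bp from the Cd79a TSS (chr7:25688001-25688500, highest point at -15 bp of Arhgef1), 10 and 26 MEL reads stood against an input level of 8.51 for the sum (4.23-fold, 1.34 to 21.5, adjusted p 1.32e-09), with 3 input reads. ES-EP had 42 and 21 reads there against a level of 17.8 (3.55-fold, 1.81 to 7.75, adjusted p 7.96e-14). That each preparation exceeded the input level follows from the calling rule. In ES-EP preparation A had the more reads.

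Next to it, at 5,350 bp, ES-EP had 41 and 19 reads against 12.4 (4.83-fold, adjusted p 4.26e-19), while MEL cells had 5 and 16 against 14.2 and were not called. The second site, at 7,850 bp and inside Arhgef1, was called in ES-EP only with 33 and 14 reads against 10.7 (4.41-fold, adjusted p 2.56e-13), where MEL cells had 5 and 6. The calls depended on the preparation with more reads. No Cd79a window was called in ES-EP once preparation A was left out, nor in MEL cells once B was.

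Cd79b (chr11:106172655-106176076, minus strand), the partner chain of Cd79a, had no called window. Its window of lowest p in MEL cells, at -2,674 bp, had 5 and 5 reads against a level of 5.81 (1.72-fold, 0.771 to 3.48). In ES-EP the window of lowest p, at -4,674 bp, had 3 and 6 reads against 3.71 (2.42-fold, 0.987 to 5.44). Both adjusted p-values were 1.0. Both intervals include 1, so that no occupancy was detectable in the Cd79b locus at this depth.

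Lyn (chr4:3605262-3740269, plus strand), the Src kinase that starts the cascade, had the member window with the most reads in both cell types together. It covers the TSS, with its highest point in a UTR exon (Lyn site 1, chr4:3605001-3605500). The MEL preparations had 35 and 113 reads against a level of 11.3 (13-fold, 4.99 to 48.5, adjusted p 1.12e-103), and ES-EP had 96 and 75 against 28.4 (6.02-fold, 3.60 to 10.8, adjusted p 9.57e-70). In RPM, the distinct reads of a library scaled to its depth, the MEL values were 7.49, 5.99, 15.2 and 18.4 in A1, A2, B1 and B2. The ES-EP values were 12.1, 19.1, 11.1 and 11.1 RPM. All 8 libraries were high here, with MEL preparation A the lowest.

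In an intron 973 bp past the TSS, ES-EP had a weaker window with 16 and 13 reads against 11.1 (2.60-fold, adjusted p 0.00225), where MEL cells had 14 and 16 against 17.0 and were not called. At 4,973 bp MEL cells had 15 and 34 reads against 5.27 (9.30-fold, 5.98 to 14.5, adjusted p 4.46e-27) and ES-EP 6 and 7 against 7.10 (1.83-fold, 0.936 to 3.30). The window at 4,973 bp was thus called in MEL cells alone.

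Lyn site 5 lies in an intron, 2,646 bp from an internal start, and was called in both cell types. ES-EP had 19 and 25 reads against 2.69 (16.4-fold, adjusted p 5.82e-34), the highest fold of any member window in ES-EP, and MEL cells had 10 and 13 against 5.67 (4.05-fold, 1.00 to 35.5, adjusted p 1.41e-05). The libraries of 1 preparation did not match each other at this site. In ES-EP, library A1 had 19 reads and A2 had 0 (which allows up to about 3 by a 1-sided 95% limit), while B1 had 5 and B2 had 20. In MEL cells A1 had 7, A2 had 3, B1 had 12 and B2 had 1. The sums per preparation do not show this spread.

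Both remaining Lyn sites were called in ES-EP with 8 and 5 reads each against 2.69 (4.83-fold, 2.57 to 8.26, adjusted p 0.00200). They lie in introns, at -19,354 and 56,146 bp from the internal start, and MEL cells had 2 and 3 reads at the former and 4 and 3 at the latter. Of the 5 Lyn windows called in ES-EP, 2 were left at an adjusted p below 0.001.

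Blk (chr14:63991674-64036024, minus strand), the Src kinase largely restricted to the B lineage, had no called window. In MEL cells its window of lowest p had 4 and 5 reads against 2.55 (3.53-fold, 1.61 to 6.69, adjusted p 0.183), and ES-EP had 1 and 3 reads there. In ES-EP the lowest p was 5,274 bp past the TSS, with 8 and 5 reads against 4.2 (3.10-fold, 1.46 to 6.25, adjusted p 0.102). Both windows were chosen for their low p, which raises their fold. With repeated positions counted, 1 Blk window was called in ES-EP, as it was with the first ES-EP input library alone.

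Syk (Sykb in the annotation used, chr13:52678542-52744161, plus strand), the kinase that docks on the phosphorylated receptor tails, had the one member window that passed the test between the cell types, given further on. Its promoter window, centred at -292 bp (chr13:52678001-52678500), had 32 and 76 reads in MEL cells against a level of 5.67 (19-fold, 5.14 to 159, adjusted p 9.58e-92), with 2 input reads. ES-EP had 4 and 8 reads against 7.10 (1.69-fold, 0.512 to 7.19, adjusted p 1.0). The 4 MEL libraries had 6.95, 5.42, 9.20 and 13 RPM. This window had the highest fold over input of all member windows in MEL cells.

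The adjacent window, at the TSS, repeated the pattern with 15 and 40 reads in MEL cells against 11.3 (4.85-fold, 1.79 to 18.4, adjusted p 1.43e-17) and 1 and 9 in ES-EP against 5.33. At 1,378 bp, in an intron, MEL cells had 6 and 14 reads against 5.00 (4.00-fold, adjusted p 1.11e-04) and ES-EP 1 and 0 against 3.55. A further intron window lies 18,422 bp from an internal start, 32.2 kb from the 5′ end of the gene. It had 11 and 10 reads in MEL cells against 5.16 (4.07-fold, adjusted p 4.64e-05) and 4 and 5 in ES-EP against 3.89. No Syk window was called in ES-EP under any of the 15 alternatives for calling, and at least 1 was called in MEL cells under all 13.

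Another Syk window, 13.7 kb from the 5′ end of the gene, had 15 and 30 reads in MEL cells against 17.0 (adjusted p 5.29e-06). It covers the internal Syk start from which the window at 18,422 bp was measured. It was not called, because preparation A reached 1.96 times the input level and the rule asks for 2. Among the member windows that passed the adjusted p but not this condition, it is the closest to the limit.

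Btk (chrX:131076875-131118109, minus strand), the kinase whose loss causes agammaglobulinemia, had 8 called windows in MEL cells, the most of the members there, and 4 in ES-EP. On its TSS, the window of Btk site 4 (chrX:131117501-131118000, highest point in a UTR exon) had 47 and 48 reads for MEL against 11.3 (8.37-fold, 5.80 to 12.3, adjusted p 9.92e-50), and for ES-EP 25 and 12 against 5.33 (6.94-fold, 2.20 to 35.2, adjusted p 4.01e-16). By library, MEL cells had 10.2, 7.98, 6.80 and 7.62 RPM and ES-EP 4.2, 4.35, 0.483 and 2.34. Every MEL library was above every ES-EP library at this window, but the MEL input over the locus was also 2.95 times the depth-scaled ES-EP input, and less that ratio the log2 difference of the window went from 1.5 to -0.06.

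The highest read count of the Btk locus lay at -2,141 bp, on the TSS of Rpl36a, which encodes a ribosomal protein (Btk site 5). MEL cells had 26 and 123 reads against 17.0 (8.75-fold, 3.93 to 24.2, adjusted p 3.33e-81) and ES-EP 33 and 24 against 10.7 (5.35-fold, 2.31 to 15.2, adjusted p 4.22e-20). The MEL reads were uneven, and preparation A alone had 3.39 times its input level. The neighbouring window at -1,641 bp was called in both cell types too, with 12 and 19 reads (4.01-fold) in MEL cells and 9 and 4 (4.80-fold) in ES-EP.

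Inside the gene, site 2 was called in both cell types, 27,762 bp from the TSS. MEL cells had 12 and 17 reads against 4.05 (7.16-fold, 4.14 to 12.3, adjusted p 8.07e-13) and ES-EP 12 and 4 against 2.69 (5.95-fold, 3.40 to 9.66, adjusted p 1.59e-05). Its sequence, above, has GAGGAAGT 23 bp from the highest point. No other gene starts within 2 kb of it.

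Btk site 3, made of 3 adjacent windows between 4,262 and 5,262 bp past the TSS, was called in MEL cells only. Their MEL reads were 16 and 22, 7 and 16, and 12 and 9, and their folds 5.31, 3.21 and 3.11. ES-EP had 1 and 1, 4 and 1, and 4 and 2 reads in them. The last Btk window called in MEL cells, with 16 and 40 reads against 11.3 (4.94-fold, adjusted p 3.07e-18), lies past the 3′ end on the TSS of Timm8a1, which encodes a mitochondrial import protein. ES-EP had 14 and 9 reads against 12.4 there. The MEL input was itself deeper over this locus, at 2.95 times the depth-scaled ES-EP input, against 1.5 over chromosome X.

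Blnk (chr19:41003417-41069025, minus strand), the adaptor that Syk phosphorylates, had 2 called windows in ES-EP and none in MEL cells, and both held few reads. The intron window at 30,888 bp had 6 and 7 reads in ES-EP against 3.55 (3.66-fold, with an interval that includes 1, adjusted p 0.0257), and MEL cells had 1 and 12. The window at -4,225 bp had 6 and 6 against 2.88 (4.17-fold, 1.97 to 8.26, adjusted p 0.0151), and MEL cells had 2 and 5. Neither passed an adjusted p of 0.001, and neither was called without preparation A.

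Closer to the Blnk TSS, at -1,225 bp, both cell types passed the adjusted p, but in 1 preparation each. MEL cells had 2 and 9 reads against 2.84 (adjusted p 0.0345) and ES-EP 11 and 3 against 3.55 (adjusted p 0.00744). The lower preparation had 1.57 times its input level in both cases, so the window was not called in either.

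Plcg2 (chr8:120022191-120159040, plus strand), the phospholipase that makes the second messengers of the cascade, had a called window near its TSS in both cell types. In the window 559 bp past the TSS (Plcg2 site 2, chr8:120022501-120023000), MEL cells had 33 and 61 reads against 5.67 (16.6-fold, 4.46 to 139, adjusted p 2.24e-74) with 2 input reads, and ES-EP 16 and 8 against 5.97 (4.02-fold, 2.30 to 6.90, adjusted p 1.28e-05). The adjacent window at 59 bp had 21 and 78 reads in MEL cells against 22.7 (4.36-fold, adjusted p 7.49e-29) and 29 and 18 in ES-EP against 32.0 (1.47-fold, 0.838 to 2.69), which was not called. The input itself was high over this TSS, with 8 and 18 reads.

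Plcg2 site 3, in an intron 45,059 bp from the TSS, was called in both cell types with 14 and 14 MEL reads (4.61-fold, 2.77 to 7.55, adjusted p 4.44e-08) and 10 and 9 ES-EP reads (5.11-fold, 2.82 to 8.93, adjusted p 9.59e-06). It is the window of lowest p of Plcg2 in ES-EP. The next window, at 45,559 bp, had 18 and 20 reads in MEL cells (3.35-fold, 1.21 to 12.9) and 5 and 1 in ES-EP, where it was not called. Called in MEL cells alone were also the windows at -3,441 bp (13 and 17 reads, 2.12-fold, 0.813 to 6.98, adjusted p 0.0328) and at 79,059 bp (10 and 18 reads, 6.39-fold, 3.38 to 12.4, adjusted p 3.32e-11). The former is the lowest fold among the calls. In ES-EP no Plcg2 window was called without preparation A, with the first libraries alone or with the binomial test, 3 of 15 alternatives.

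Ptpn6 (chr6:124670725-124688732, minus strand), the phosphatase SHP-1 that restrains B cell, myeloid and erythropoietin receptor signalling, had 4 called windows in MEL cells and 2 in ES-EP. Its strongest window in both, Ptpn6 site 3 at -2,518 bp, covers the start of Grcc10, which overlaps Atn1. There MEL cells had 12 and 26 reads against 6.08 (6.25-fold, 3.95 to 9.85, adjusted p 3.22e-15) and ES-EP 38 and 20 against 8.54 (6.79-fold, 4.83 to 9.47, adjusted p 2.03e-25). At an annotated Ptpn6 start inside the gene (Ptpn6 site 2), ES-EP had 16 and 8 reads against 7.43 (3.23-fold, 1.89 to 5.40, adjusted p 4.69e-04) and MEL cells 6 and 22 against 14.2 (1.97-fold, 0.753 to 6.55, adjusted p 0.118). It is the one Ptpn6 site at a start of the gene itself.

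The other called Ptpn6 windows belong to MEL cells and to neighbouring starts. At the TSS of Phb2 MEL cells had 5 and 21 reads against 5.13 (5.07-fold, adjusted p 2.85e-08) and ES-EP 29 and 16 against 40.9. At Atn1 the MEL reads were 12 and 29 against 11.3 (3.61-fold) and 6 and 13 against 5.42 (3.51-fold), and the ES-EP reads 36 and 26 against 48.0 and 18 and 18 against 30.2. In these 3 windows ES-EP had more ChIP reads than MEL cells but also 17 to 27 input reads, so the ratio to input stayed between 1.10 and 1.29. With 2 kb in place of 10 kb on each side, no MEL window was counted to Ptpn6.

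**Figure D2:**
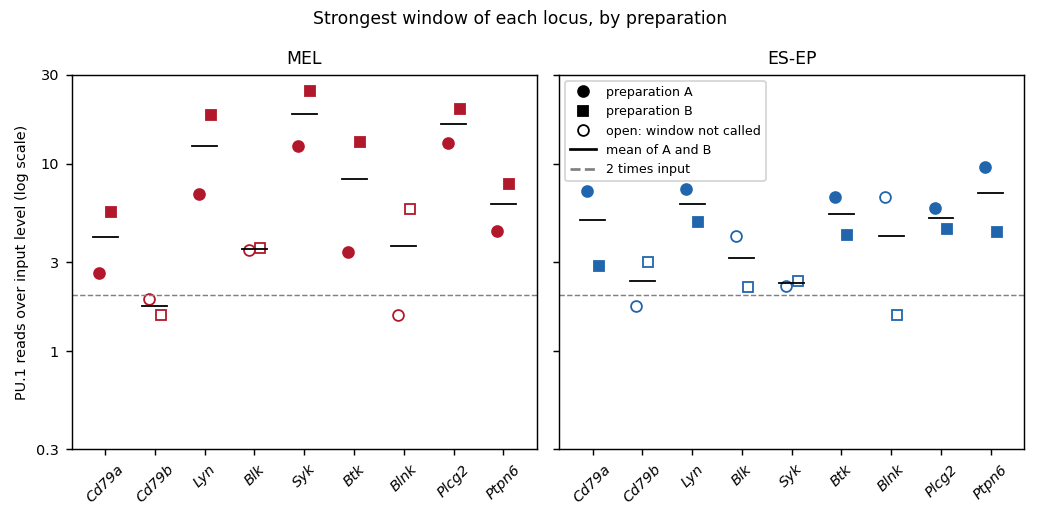
PU.1 reads over the input level (y axis, log scale) in the window of lowest Poisson p of each member (x axis), for MEL cells on the left and ES-EP on the right; circles and squares are preparations A and B, lines their mean, open symbols windows that were not called, and the dashed line 2 times input. In MEL cells preparation B lies above A at all 6 called members, and in ES-EP preparation A lies above B at the 5 members whose window was called as shown.

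The window of lowest p is chosen for its reads, which raises its fold. The window was therefore also chosen in 1 preparation and read in the other, although at called members the rule already asked for 2 times input in each preparation, so that these values are a description. In MEL cells, windows chosen in A and read in B had folds of 24.4 (95% interval 19.2 to 30.5) at Syk, 19.6 at Plcg2, 18.1 at Lyn, 7.78 at Ptpn6 and 7.69 at Btk. Chosen in B and read in A they had 12.5, 12.9, 6.85, 4.39 and 3.39. The values read in B were above those read in A at each of these genes. At Btk they come from different windows, the TSS chosen in A and the Rpl36a start chosen in B. At the Btk TSS the MEL libraries of A had 10.2 and 7.98 RPM and those of B 6.80 and 7.62.

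For Cd79a the MEL values were 1.57 (0.575 to 3.41) and 2.61 (10 reads against 3.83), and for Blnk 1.92 (0.397 to 5.62) and 1.57 (0.190 to 5.66). At Cd79b and Blk the windows chosen in MEL preparation A had 0 reads in B against input levels of 1.86 and 1.40, with intervals up to 1.99 and 2.63-fold. Chosen in B and read in A, Cd79b had 1.91 (0.621 to 4.46) and Blk 0.633 (0.016 to 3.52). The ES-EP folds read in B and in A were 0.64 and 1.75 at Cd79b and 2.21 and 0.515 at Blk. In ES-EP the folds read in B and in A were 4.91 and 7.31 at Lyn, 4.35 and 9.63 at Ptpn6, 4.19 and 6.70 at Btk, 2.84 and 7.14 at Cd79a and 2.49 and 5.81 at Plcg2. At Syk they were 1.37 (0.166 to 4.96) and 0.406 (0.0103 to 2.26), and at Blnk 1.57 (0.324 to 4.59) and 3.65 (1.34 to 7.96). In ES-EP the values read in A were the higher ones at the genes with called windows, although at Btk, Plcg2 and Blnk they come from different windows.

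Over a whole locus the enrichment was diluted. The ratio of PU.1 reads to depth-scaled input had a median over the 9 loci of 1.00 in MEL A, 1.18 in MEL B, 1.03 in ES-EP A and 1.09 in ES-EP B, against 0.950, 1.02, 1.03 and 1.03 over all loci. With 2 kb flanks the ES-EP A median of the 9 loci was 0.88, below input instead of above. Btk was above 1 in each preparation, with 1.48 (1.26 to 1.76) and 1.65 (1.41 to 1.94) in MEL cells and 2.00 (1.60 to 2.53) and 1.39 (1.10 to 1.77) in ES-EP. Cd79a had 0.986 (0.735 to 1.33) and 1.34 (1.03 to 1.76) in MEL cells and 2.07 (1.67 to 2.57) and 1.43 (1.14 to 1.79) in ES-EP, in a locus that includes the start of Arhgef1. For the other 7 members the ratios lay between 0.684 and 1.42. Syk, with the highest window fold in MEL cells, had locus ratios of 1.06 (443 PU.1 and 326 input reads) and 1.18 (1.03 to 1.35) there.

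**Figure D3:**
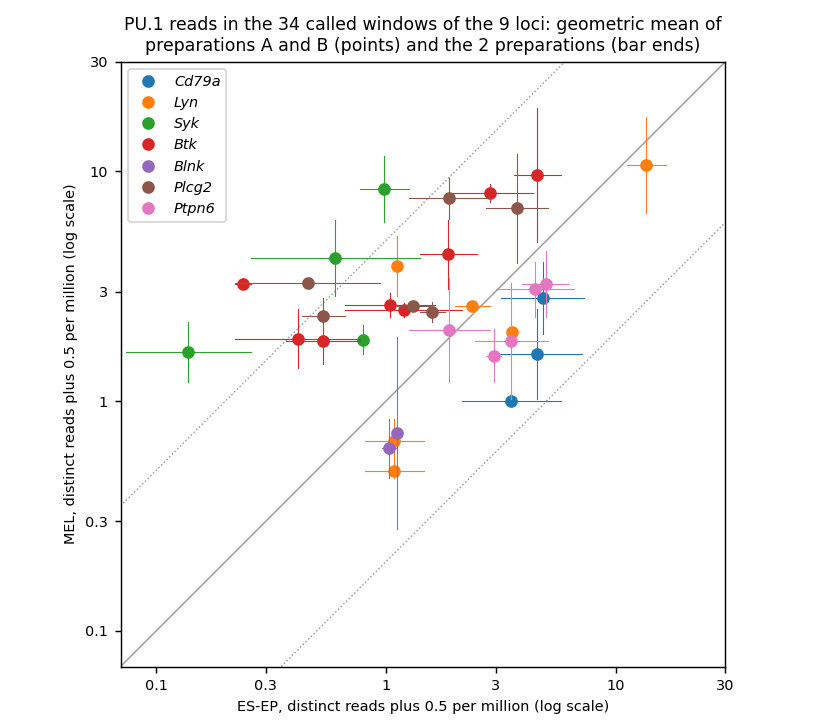
PU.1 RPM in ES-EP (x axis) and MEL cells (y axis), both log scales with 0.5 added to the reads, in the 34 windows called at the 9 loci in at least 1 cell type; points are geometric means of preparations A and B, bar ends the preparations, the solid line equality and the dotted lines a 5-fold difference. The Syk, Btk and Plcg2 windows lie above the line of equality and the Cd79a windows below it.

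Between the cell types, 32 called member windows had at least 20 reads over the 4 preparations and were compared with limma (voom, 2 against 2 preparations, adjusted by Benjamini-Hochberg over all 59,679 such windows). The log2 difference between MEL cells and ES-EP was above 0 in 21 of them (65.6%) and below 0 in 11, with a median of 1.02, against 42.6% above 0 and a median of -0.18 over all windows called in at least 1 cell type. Less the log2 ratio of the inputs over each locus, 16 were above and 16 below 0, with a median of 0.08, and the windows that changed sign were 5 of the Btk locus. An unadjusted limma p of 0.05 was passed by 10 of the 32, and by a smaller share of all windows tested (3,994 of 59,679), which include windows not called. Some of the 10 are neighbours within 1 locus. In 1 window the difference passed an adjusted p of 0.05 (3.12% of 32). Among all windows tested 0.204% passed the adjusted p, and 0.425% of the 24,932 called in at least 1 cell type. From 1 window of 32 nothing can be read about the 9 genes as a group.

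That window is the Syk promoter, with a log2 difference of 3.06 (SE 0.64, limma adjusted p 0.00445), higher in MEL cells in each of the 4 pairs of preparations. Over 10 alternatives the difference was 2.60 to 3.51 and the limma adjusted p 6.26e-08 to 0.947, with 4 passing. With any 1 preparation left out, no window of the genome passed. Over the Syk locus the MEL input was 1.71 times the depth-scaled ES-EP input, and less this ratio the difference was 2.28.

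With median-ratio size factors 6 further member windows passed, while the count over all windows tested went from 122 to 1,600. The 6 are here given with their values without those factors. They are the second Syk promoter window (log2 difference 2.52, SE 1.05, limma adjusted p 0.569), Plcg2 at 559 bp (2.01, SE 0.63, limma adjusted p 0.205), Lyn at 4,973 bp (1.80, SE 0.61, limma adjusted p 0.299), the Btk TSS (1.5, SE 0.64, limma adjusted p 0.591), the Timm8a1 start in the Btk locus (1.21, SE 0.62, limma adjusted p 0.747) and Cd79a at 7,850 bp (-1.82, SE 0.63, limma adjusted p 0.339). The Cd79a window is the one with more reads in ES-EP. The factors were 0.714 and 1.27 for MEL A and B and 1.22 and 1.01 for ES-EP A and B. They thus also rescale the preparations of a cell type against each other, beyond their depths. Between the cell types they amount to a shift of 0.146 on the log2 scale towards MEL cells. Single windows moved by other amounts, the second Syk promoter window from 2.52 to 3.37 and the Cd79a window not at all (-1.82).

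At the Btk locus the inputs differed as well, and their part in the differences was not tested. The log2 differences of its 8 windows were 1.06 to 3.76, and less the input ratio of 2.95 they were -0.50 to 2.20, with the TSS at -0.06. The Lyn TSS had a log2 difference of -0.35 (SE 0.66, limma adjusted p 0.849) and Ptpn6 site 3 of -0.56 (SE 0.63, limma adjusted p 0.772). A difference that misses the threshold with such errors does not show equal occupancy.

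Of 40 further B cell receptor pathway genes, 33 loci had a called window in MEL cells (82.5%, against 52.0% of all loci) and 26 in ES-EP (65%, against 37.6%). Of their windows 1.05% and 0.755% were called, against 0.442% and 0.291% of all windows. The largest folds were at Pirb, an inhibitory receptor (named Lilrb3 in the annotation), with 45 and 46 reads in MEL cells at -257 bp (35.7-fold), and at Malt1, a protease of NF-κB signalling, with 16 and 70 reads in MEL cells at 99 bp (27.7-fold). In ES-EP they were at the TSS of Fcgr2b, the inhibitory Fc receptor of B cells, with 87 and 60 reads (27.6-fold), and 7,922 bp past a start of Pik3r1, a PI3-kinase subunit, with 38 and 30 reads (25.3-fold). Each of these exceeds the highest member fold of its cell type. The windows of Pirb, Malt1 and Pik3r1 had 0 input reads and that of Fcgr2b had 3, so this ranking rests on few input reads.

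Among 20 genes of B cell identity (transcription factors, recombinase and surface markers among them), 9 loci had a called window in MEL cells and 8 in ES-EP. Of their windows 0.538% and 0.423% were called, above the 0.442% and 0.291% of all windows. Cd37 had 39 and 29 reads at its TSS in ES-EP (15-fold), and Pax5, the B lineage commitment factor, 33 and 20 in ES-EP far inside the gene (13.9-fold, 145,937 bp from a TSS). Rag1 had 13 and 11 reads in ES-EP at -1,592 bp (6.76-fold), near the start of B230118H07Rik, and Il7r, the interleukin-7 receptor, 19 and 19 in MEL cells at -119 bp (6.70-fold). The shares of loci with a called window were 45% in MEL cells, below the 52.0% of all loci, and 40% in ES-EP, above the 37.6%.

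For comparison with another lymphoid receptor, 20 genes of T cell receptor signalling had a called window at 7 loci in MEL cells (35%) and 5 in ES-EP (25%), below the shares of all loci. Of their windows 0.385% were called in MEL cells, below the 0.442% of all windows, and 0.428% in ES-EP, above the 0.291% of all windows. Ptpn22, a phosphatase also known from B cells, had the largest folds in both cell types, at -11,295 bp from the nearest start. It had 31 and 17 reads in ES-EP (17.8-fold) and 40 and 45 in MEL cells (16.1-fold). Next among the genes was Cd247, the zeta chain of the T cell receptor, with 26 and 29 in MEL cells at -7,062 bp (10.7-fold). The window at Lck, with 8 and 26 reads in MEL cells (10.5-fold), lies 185 bp from the TSS of Hdac1. Ctla4 had 37 and 15 reads in ES-EP (5.86-fold). No test between the lists was run, and their loci differ in length, with medians of 158, 68.5 and 89 windows.

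**Figure D4:**
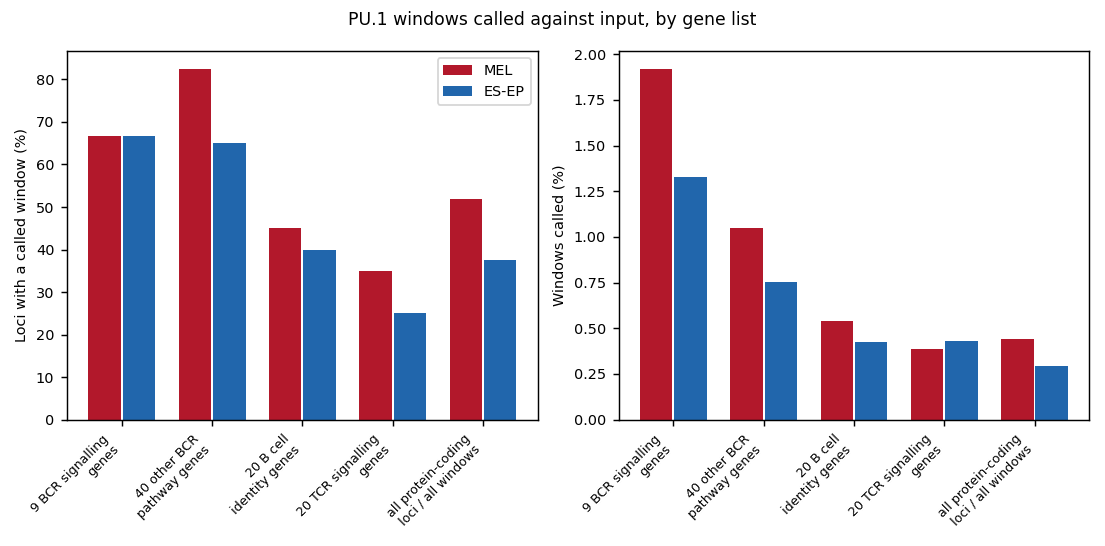
Percent of loci with at least 1 called window (left) and percent of windows called (right) for the 9 genes, the 3 other gene lists and all protein-coding loci or all windows, in MEL cells (red) and ES-EP (blue). The 9 genes have 66.7% of loci in both cell types, and 1.92% and 1.33% of windows against 0.442% and 0.291% of all windows.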

How the data were processed

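PU.1 ChIP-Seq and input DNA were sequenced in 11 libraries. Per the labels and the study's methods, the authors aligned reads of the Illumina Genome Analyzer II with ELAND (version not given in the sources used here) to mm9, keeping unique alignments with at most 2 mismatches. The deposited files list 1 aligned read a line with no value or score, and the authors' peak lists were not used. No column of values by sample was left unused (0).

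From these, 1 read per position and strand and library was kept (2,064,597 to 5,051,235 reads a library before that, 1.585 to 8.999% repeated), 5′ ends were shifted by 70 bp (MEL) or 65 bp (ES-EP), and reads were counted in 500 bp windows. The libraries of a preparation were summed, and input was scaled by the ratio of distinct reads, 2.836 for MEL cells and 1.776 for ES-EP. Fold intervals were exact binomial on PU.1 and input reads where the level came from input of the window itself or of the windows around it. They were exact Poisson on the PU.1 reads where the level was the genome mean. Windows chosen in 1 preparation and read in the other also had exact Poisson intervals. MEL cells and ES-EP were compared with limma 3.58.1 (R 4.3.3) on windows with at least 20 reads. Genes came from GENCODE M1, in which all 89 listed genes were found, Syk and Pirb through RefSeq synonyms. Python 3.11.15, numpy 2.4.6, scipy 1.17.1, pandas 2.3.3 and matplotlib 3.10.9 were used, and the scripts were tested on simulated data.

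The 9 genes and the other lists were chosen with earlier results of these data known. Every called window and the window of lowest p of each member is named, and of each other list up to 4 genes with the largest called fold. Sequence is shown for sites called in both cell types, or in 1 where a member has no such site. Alternatives were other flanks, scaling, thresholds, library sets, window offsets and read shifts, and, for limma, other weights, size factors and minimum reads. The preparations are called independent in the study's methods.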

Additional observations from a re-analysis of the deposited data

Results flagged for a closer look

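In 3 of 44 sets of 4 libraries (a window in a cell type), 1 library stood far from the other 3, where chance gives about 5% of such sets. At Lyn site 1, ES-EP library A2 had 19.1 RPM and the others 11.1 to 12.1. At Plcg2 site 2, MEL library B2 had 10.8 RPM and the others 5.99 to 6.8. At Syk site 3, MEL library B2 had 1.23 RPM and the others 2 to 2.14, at 4 to 7 reads a library. The Syk promoter window differed between the cell types by a direct test, with a log2 difference of 3.06 (MEL over ES-EP, SE 0.64, limma adjusted p 0.00445). It passed in 4 of 10 alternatives, and less the input ratio of the locus the difference was 2.28.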

How the results depend on the processing

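Under the alternatives 87 values kept their direction and side of the threshold or stayed near their value, 26 moved and 6 were weaker. Called windows at the 9 loci (26 in MEL cells, 18 in ES-EP) became 45 and 29 with 50 kb on each side, and 7 and 8 with an exact binomial test against the window's own input. The called loci (6 in each) became 9 in MEL cells and 8 in ES-EP with 50 kb, Cd79b and Blk among them in both. They were 4 in each with the binomial test, which left 2,915 (MEL) and 4,226 (ES-EP) called windows over the genome. These counts of loci are among the values taken as near. With the first library of each preparation alone, 6 member windows were left in ES-EP. Leaving out a preparation gave 15 to 30 windows in MEL cells (15 without B) and 5 to 18 in ES-EP (5 without A), and 3 to 6 called loci in ES-EP. ES-EP members called near a TSS (4) fell to 2 with the binomial test, with first libraries and with unshifted reads, and were 2 to 5 with a preparation left out. The median locus ratio of ES-EP was 0.88 (A, from 1.03, so below input instead of above) and 1.03 (B) with 2 kb flanks, and 1.11 (A) with input scaled by the median of 10 kb bins. The causes were not tested.

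Between the cell types 1 member window differed with limma, and 122 of all windows tested. The count was 6 (all windows 1,905) with unweighted values, 7 (1,600) with median-ratio size factors, 4 (4,659) with no minimum of reads, 0 (10) with a minimum of 40, 10 (2,115) with each library as a sample and 5 (2,683) by a 5-fold rule without a test. It was 0, as over all windows, with any 1 preparation left out (4 to 10 member windows at an unadjusted p of 0.05), a fit in which the lone preparation is assumed to vary like the others. With the letter as a replicate block it was 0 (8 at an unadjusted p of 0.05), and 8 of all windows. The differences of A and B correlated between the cell types with r = -0.0103 over 24,932 called windows. Such a correlation cannot show whether preparations of the same letter were made together. The Syk promoter difference passed in 4 of 10 alternatives.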
